A study of Mus musculus with 6 samples.

Results

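The CDK inhibitors and D-type cyclins were 10 genes read by name from the deposited tables of primary myoblasts: Cdkn1a, Cdkn1b and Cdkn1c of the CIP/KIP family, Cdkn2a, Cdkn2b, Cdkn2c and Cdkn2d of the INK4 family, and the D-type cyclins Ccnd1, Ccnd2 and Ccnd3. They were 10 of 54532 genes in the table, and all 10 were among the 14679 that passed the expression filter and were tested, each with at least 10 reads in every library. Bulk RNA-seq was done on myoblasts, the dividing progenitors of muscle fibres, grown from digested hind-limb muscle of 3-week-old mice in proliferation medium with serum and FGF and taken at day 2. There were 3 WT libraries and 3 libraries labelled eIF5A-KO. The study's knockout is tamoxifen-induced, Pax7 CreERT2/+ with eIF5A f/f, on the C57BL/6j background, with WT littermates as controls. The paper describes the controls of different experiments as carrying either the Cre allele or the floxed alleles, and the sources do not say which applied to these WT libraries. CreERT2 is driven from Pax7, a gene of muscle stem cells, so that other cells of an unsorted culture would keep the floxed gene. Nothing in the labels says that the libraries of a group came from separate mice or cultures, so that p-values measure only the spread between these samples. Libraries of a group differed by more than counting noise, with a chi-square per degree of freedom of 20.3 to 138.

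Division starts when growth factors raise the D-type cyclins, which bind CDK4 or CDK6 and begin the phosphorylation of the retinoblastoma protein. The INK4 proteins bind CDK4 and CDK6 directly and keep the cyclin away, whereas the CIP/KIP proteins bind cyclin-CDK complexes and mainly block CDK2. Phosphorylation of the retinoblastoma protein frees E2F factors, which switch on the genes of S phase. In muscle progenitors this balance is tied to differentiation, since myoblasts leave the cell cycle, with Cdkn1a and Cdkn1c among the inhibitors involved, before they fuse.

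The reads counted on genes came to 16281216 in the smallest library and 17734551 in the largest, and the biological coefficient of variation between replicates was 0.239. WT replicate 1 had 5.75% of its counts on mitochondrial transcripts, against 2.11% to 3.50% elsewhere. The target's own transcript did not separate the groups. Eif5a stood at 1603, 986 and 1238 CPM (read counts scaled by library size and TMM factor) in WT and at 1364, 1459 and 1059 CPM in the libraries labelled eIF5A-KO, for a log2 fold change of 0.02 (95% confidence interval -0.51 to 0.55, edgeR adjusted p = 0.993). Since each count takes in all exons, the floxed part was not resolved, and the groups are named by their labels throughout. Over all tested genes, 3 passed an edgeR adjusted p under 0.05, which is 0.0204%.

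No member passed that threshold. In the libraries labelled eIF5A-KO, 6 of the 10 members were lower and 4 higher, where 7582 of all 14679 tested genes were lower. The median log2 fold change of the members was -0.20 against -0.01 over all tested genes. Without WT replicate 1 the tally was 5 lower and 5 higher with a median of -0.06. Without replicate 3 labelled eIF5A-KO it was 7 lower and 3 higher with a median of -0.10. In that fit 2 members were lower and 1, Cdkn1c, was higher at an unadjusted p under 0.05. Counts and medians of the members and of the gene lists with a library left out were added after the data were seen. With all libraries, at an unadjusted p under 0.05, 2 members were lower, Cdkn2a and Cdkn2c, both of the INK4 family, and 0 were higher. The same limit called 4.02% of all tested genes lower and 2.74% higher. The 3 libraries labelled eIF5A-KO lay below all WT libraries for the same 2 members and above them for 1, Cdkn2b. Over all tested genes the groups were apart in this way for 6.83% below and 5.68% above. In the exact two-sided permutation test on log2(FPKM + 1), Cdkn2a, Cdkn2b and Cdkn2c had p = 0.1, the smallest that this design allows, and the other 7 members had values from 0.2 to 1.0.

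In mm10 coordinates, the CIP/KIP genes lie at chr17:29090976-29100727 on the plus strand (Cdkn1a), chr6:134920401-134925513 on the plus strand (Cdkn1b) and chr7:143458339-143461050 on the minus strand (Cdkn1c). Of the INK4 genes, 3 lie on the minus strand of chromosome 4, Cdkn2a and Cdkn2b side by side and Cdkn2c at chr4:109660876-109667189, and Cdkn2d lies at chr9:21288410-21291407 on the minus strand. The cyclins lie at chr7:144929931-144939925 (Ccnd1, minus strand), chr6:127125162-127152193 (Ccnd2, minus strand) and chr17:47505051-47599691 (Ccnd3, plus strand).

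**Figure D1:**
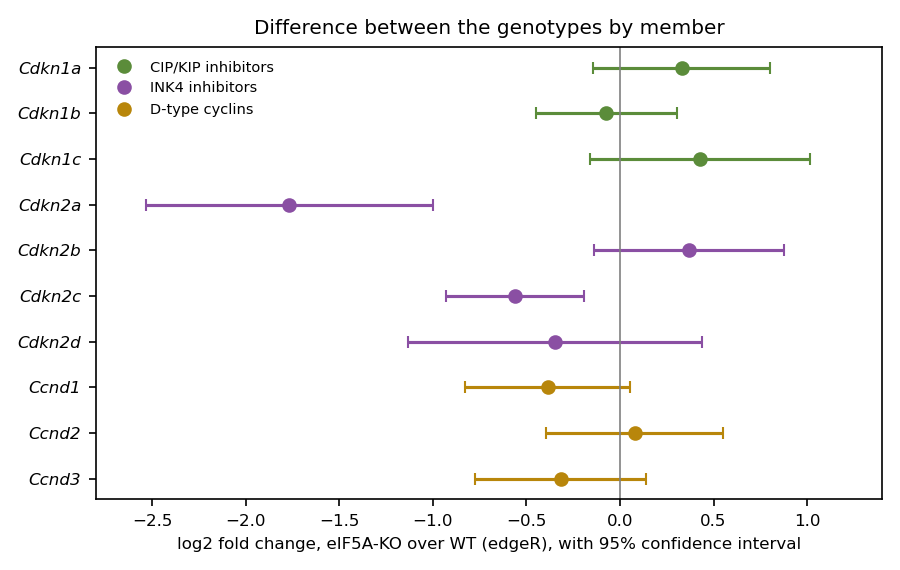
Log2 fold change of each member, libraries labelled eIF5A-KO over WT, from edgeR (points) with 95% confidence intervals (bars), coloured by family. The intervals of Cdkn2a (-2.53 to -0.999) and Cdkn2c (-0.93 to -0.19) lie below 0 and those of the other 8 members include 0, and no member had an adjusted p under 0.05.

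The sequence around the starts of the Cdkn2a and Cdkn2b genes is shown first, because the strongest difference of the family lay in Cdkn2a and its direct neighbour Cdkn2b had the opposite sign. Cdkn2a has a pair of starts that give different proteins, Arf from the upstream start and the p16 protein from the downstream start, and only the latter is an INK4 inhibitor. The windows are 300 bases each on the minus strand of chromosome 4, taken from RefSeq with build GRCm38.p6. They are chr4:89294570-89294869 (Arf start), chr4:89282143-89282442 (p16 start) and chr4:89310983-89311282 (Cdkn2b), and capitals mark an E2F-type match.
Cdkn2a, Arf start: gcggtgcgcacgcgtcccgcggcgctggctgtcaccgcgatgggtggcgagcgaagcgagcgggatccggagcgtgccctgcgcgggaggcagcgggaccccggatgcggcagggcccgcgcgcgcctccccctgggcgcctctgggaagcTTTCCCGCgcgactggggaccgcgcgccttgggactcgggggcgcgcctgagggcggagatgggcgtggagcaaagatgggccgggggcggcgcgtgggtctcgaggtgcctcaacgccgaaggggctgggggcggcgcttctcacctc
Cdkn2a, p16 start: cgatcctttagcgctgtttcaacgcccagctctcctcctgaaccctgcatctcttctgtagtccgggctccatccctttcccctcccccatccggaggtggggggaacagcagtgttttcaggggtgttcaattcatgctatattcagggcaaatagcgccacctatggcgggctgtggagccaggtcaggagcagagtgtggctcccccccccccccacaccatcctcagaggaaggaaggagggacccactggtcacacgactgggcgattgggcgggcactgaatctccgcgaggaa
Cdkn2b: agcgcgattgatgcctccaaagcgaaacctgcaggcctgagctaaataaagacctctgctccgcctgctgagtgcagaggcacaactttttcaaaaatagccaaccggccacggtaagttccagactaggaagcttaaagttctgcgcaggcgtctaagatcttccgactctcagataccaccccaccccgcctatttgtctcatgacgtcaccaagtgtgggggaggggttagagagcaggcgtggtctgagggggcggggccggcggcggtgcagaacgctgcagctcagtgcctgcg
The letters TTTCCCGC, TTTGGCGC, TTTCGCGC and TTTGCCGC were searched on both strands as E2F-type sites. The Arf window held 1, TTTCCCGC at position -99 from the start, and the p16 and Cdkn2b windows held 0. Of the 11 windows found for 7 members, 1 held such a match, against 2.28% of 32544 mouse promoters of the same length. The Arf window had a GC content of 77.0% and 45 CpG dinucleotides, the p16 window 60.3% and 12, and the Cdkn2b window 57.7% and 18, where the median GC content of all promoters was 53.0%. Cdkn1c, Ccnd1 and Ccnd2 had no entry in the table.

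Cdkn1a, which encodes p21, the inhibitor that p53 and MyoD are known to induce, was the most abundant member. It stood at 702, 904 and 1042 CPM in WT replicates 1 to 3 and at 1269, 1013 and 1046 CPM in the replicates labelled eIF5A-KO. WT replicate 1 was the lowest library and replicate 1 labelled eIF5A-KO the highest, and the groups overlapped because WT replicate 3 lay above replicate 2 labelled eIF5A-KO. The means were 882 ± 171 CPM (SD, n = 3) and 1109 ± 139 CPM (SD, n = 3), and the log2 fold change was 0.33 (interval -0.14 to 0.80, edgeR adjusted p = 0.863). It was 0.20 without WT replicate 1 and 0.47 without WT replicate 3. With at least 10860 reads per library, the error of counting was minor next to the spread of the replicates.

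Cdkn1b encodes p27, an inhibitor controlled largely through degradation of the protein. Its levels were 37.7, 43.7 and 43.2 CPM in WT and 42.3, 34.9 and 41.3 CPM in the libraries labelled eIF5A-KO. The groups overlapped almost fully, with a log2 fold change of -0.07 whose interval, -0.45 to 0.30, was among the narrowest of the members (edgeR adjusted p = 0.974). The sign of this small difference depended on replicate 2 labelled eIF5A-KO, without which the value was 0.02.

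Cdkn1c, the imprinted gene of p57, was even in WT, at 14.4, 13.2 and 14.8 CPM. In the libraries labelled eIF5A-KO it was spread out, at 26.1, 18.6 and 12.4 CPM, so that replicate 3 lay below and the other two above every WT library. The means were 14.1 ± 0.837 and 19.0 ± 6.86 CPM (SD, n = 3 each), and the log2 fold change was 0.43 (interval -0.16 to 1.02, edgeR adjusted p = 0.856). Leaving out replicate 1 labelled eIF5A-KO gave 0.14 and leaving out replicate 3 gave 0.66. Kcnq1ot1, the noncoding RNA of the same imprinted domain, stood at 3.47 CPM in WT and 3.53 CPM in the libraries labelled eIF5A-KO (log2 fold change 0.02, edgeR adjusted p = 0.996). Kcnq1, of the same domain, was higher and did not overlap between the groups. It stood at 1.05 and 2.07 CPM (log2 fold change 0.91, edgeR adjusted p = 0.644).

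**Figure D2:**
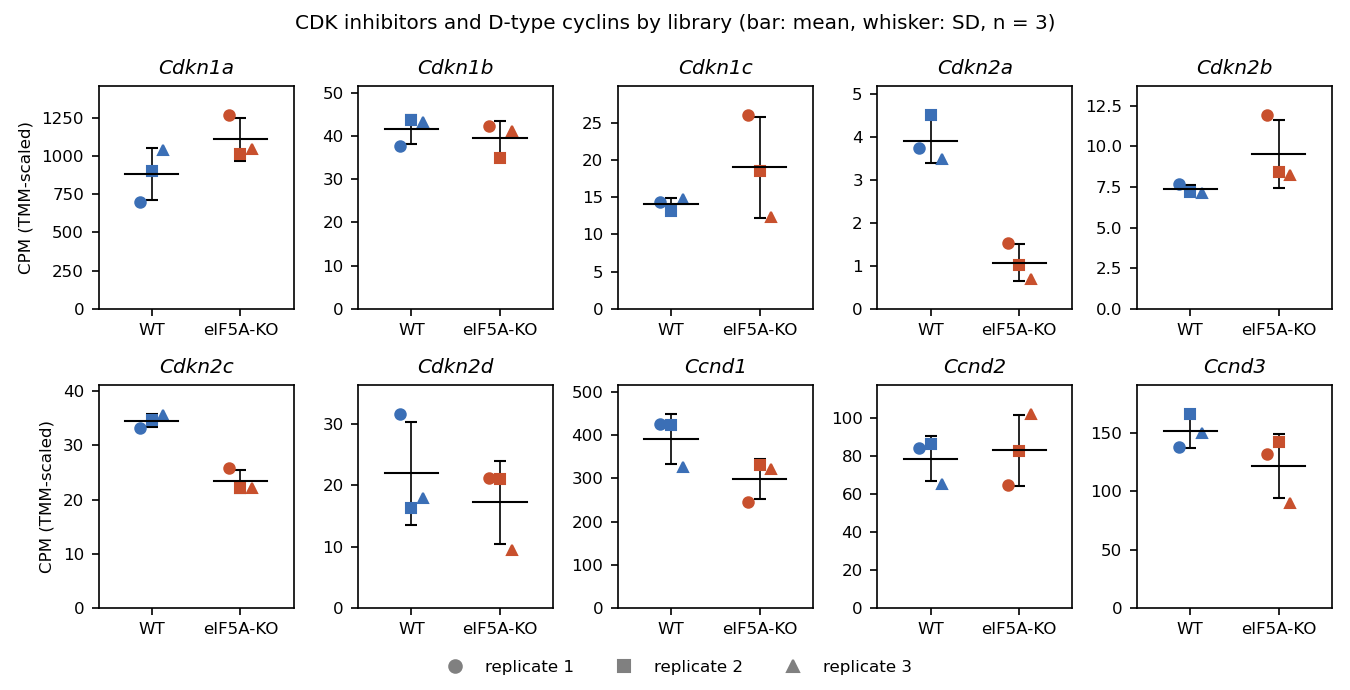
TMM-scaled CPM of the 10 members in each library (symbols mark the replicate number), with the mean (bar) and SD (whisker) of the 3 libraries per group; each axis starts at 0. Cdkn2a and Cdkn2c sit lower in all 3 libraries labelled eIF5A-KO than in any WT library, Cdkn2b sits higher, and the groups of the other 7 members overlap.

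Cdkn2a had the lowest level of the 10 and differed most between the groups. It was at 3.75, 4.51 and 3.49 CPM in WT, from 58, 85 and 59 reads. In the libraries labelled eIF5A-KO it was at 1.53, 1.01 and 0.680 CPM, from 25, 17 and 12 reads. The highest of these 3 libraries lay well under the lowest WT library. The means were 3.91 ± 0.531 and 1.07 ± 0.428 CPM (SD, n = 3 each), and the WT mean was 3.65 times the other. edgeR gave a log2 fold change of -1.77 (SE 0.341, interval -2.53 to -0.999), or a level of 0.294 of WT with an interval of 0.173 to 0.500. The unadjusted p of 0.000512 ranked 26 among all tested genes, and the adjusted p was 0.289. The call depended on the method: without the expression filter the edgeR adjusted p was 0.000988 and with DESeq2 it was 0.00224, whereas over the other 8 settings and all 6 fits with 1 library left out it stayed above 0.05. The unadjusted p was under 0.05 in all 16 of these fits. On the log2(FPKM + 1) scale, which shrinks differences of low genes, the difference was -1.18, and the exact two-sided permutation test gave p = 0.1, the smallest that 3 against 3 libraries allow.

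The counts on Cdkn2a do not say which of its products differed. Its gene spans chr4:89274471-89294653 on the minus strand with a pair of annotated transcripts of 3 exons each, 852 bases for the p16 transcript and 895 bases for the Arf transcript. They share 575 bases, while 277 bases belong to the p16 transcript alone and 320 bases to the Arf transcript alone, and the table holds 1 count for the 1172 bases of both. No other annotated gene overlapped its exons, and no transcript annotated to a different gene matched it over 200 bases or more at 90% identity.

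Cdkn2b, which encodes p15, an inhibitor induced by TGF-beta, lies on the same strand, separated from the Arf start by 11645 bases, and had the opposite sign. Its gene spans chr4:89306299-89311039. It was at 7.69, 7.21 and 7.15 CPM in WT and at 11.9, 8.41 and 8.22 CPM in the libraries labelled eIF5A-KO. All 3 of the latter lay above WT, replicate 1 by far the most. The log2 fold change was 0.37 (interval -0.14 to 0.87, unadjusted p = 0.136, adjusted p = 0.860 in edgeR), and without replicate 1 labelled eIF5A-KO it was 0.18. Mtap, a housekeeping enzyme gene on the other side of Cdkn2a, stood at 97.1 and 92.7 CPM, a log2 fold change of -0.07 (edgeR adjusted p = 0.976).

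Cdkn2c, which encodes the CDK6 and CDK4 inhibitor p18, had the tightest values of the family. It was at 33.3, 34.7 and 35.7 CPM in WT and at 25.9, 22.1 and 22.1 CPM in the libraries labelled eIF5A-KO, with at least 374 reads in each. The distance between the groups exceeded the range within either. The means were 34.6 ± 1.20 and 23.4 ± 2.17 CPM (SD, n = 3 each), and the log2 fold change was -0.56 (SE 0.163, interval -0.93 to -0.19), or 0.678 of WT. The unadjusted p of 0.00703 ranked 207 and the edgeR adjusted p was 0.484, and it stayed above 0.05 in all 16 other fits, where the log2 difference ran from -0.63 to -0.51. The exact permutation test on log2(FPKM + 1) gave a difference of -0.51 at its smallest p, 0.1.

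Cdkn2d, which encodes p19 of the INK4 family, was at 31.5, 16.2 and 18.0 CPM in WT and at 21.1, 21.1 and 9.35 CPM in the libraries labelled eIF5A-KO. Its mean was lower by 0.35 on the log2 scale (interval -1.14 to 0.44, edgeR adjusted p = 0.926), and the difference rested on WT replicate 1, the library with the high mitochondrial share, and on replicate 3 labelled eIF5A-KO. Leaving out the former gave a log2 fold change of 0.01 in edgeR and a difference of -0.07 on log2(FPKM + 1), and leaving out the latter gave -0.05 and 0.01.

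**Figure D3:**
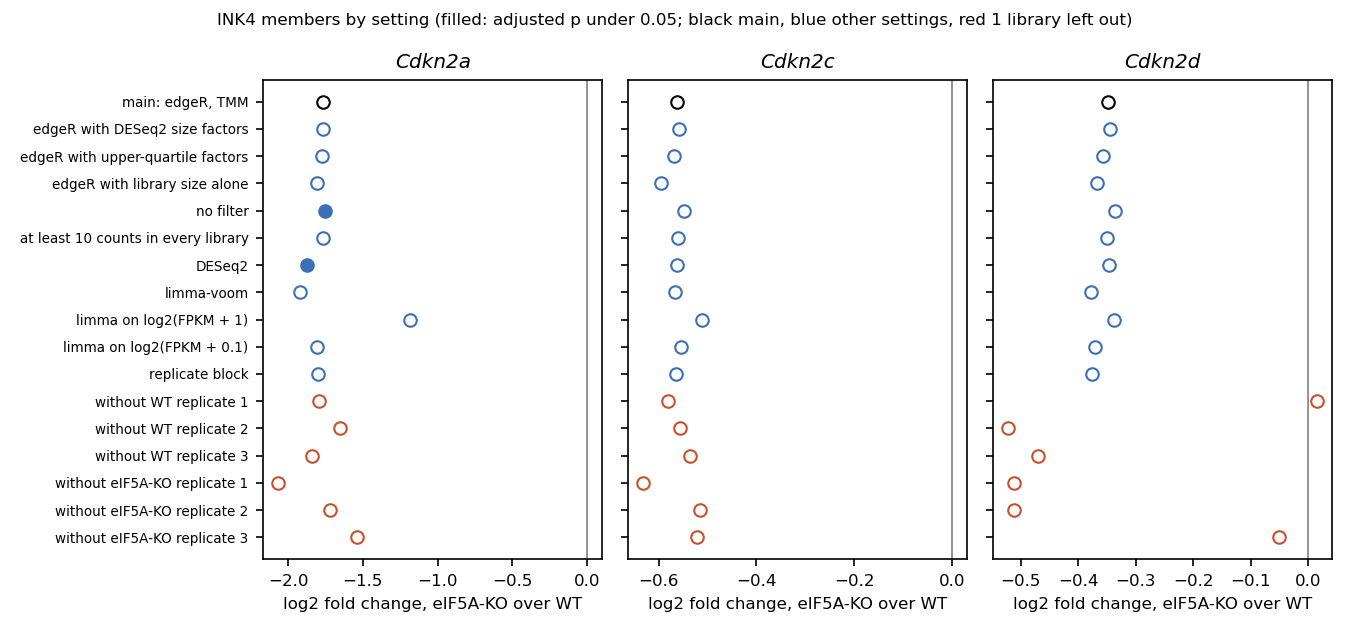
Log2 fold change (libraries labelled eIF5A-KO over WT) of 3 INK4 members under each setting, in black for the main setting, blue for other settings and red with 1 library left out; filled points had an adjusted p under 0.05. Cdkn2a is below -1 in every setting and filled in 2, Cdkn2c stays between -0.63 and -0.51, and Cdkn2d reaches 0.01 without WT replicate 1.

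Ccnd1, the D-type cyclin that mitogens such as FGF are known to induce in myoblasts, was at 426, 423 and 326 CPM in WT. In the libraries labelled eIF5A-KO it was at 246, 330 and 322 CPM. WT replicates 1 and 2 stood above all others, while WT replicate 3 lay just under replicate 2 labelled eIF5A-KO. The means were 391 ± 57.0 and 299 ± 46.6 CPM (SD, n = 3 each), and the log2 fold change was -0.39 (interval -0.83 to 0.05, unadjusted p = 0.0792, adjusted p = 0.808 in edgeR). It was -0.25 without replicate 1 labelled eIF5A-KO. The order of the 6 libraries by Ccnd1 was the exact reverse of their order by Cdkn1a, a pair that was chosen after the values were seen. The Cdkn1a to Ccnd1 ratio of FPKM (fragments per length of exon, scaled to library size) was 2.19, 2.83 and 4.24 in WT and 6.84, 4.07 and 4.30 in the libraries labelled eIF5A-KO. WT replicate 3 lay within the range of the other group, so the ratio did not separate the groups.

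Ccnd2, a D-type cyclin of many dividing cells, was at 84.3, 86.2 and 65.0 CPM in WT and at 64.6, 82.4 and 102 CPM in the libraries labelled eIF5A-KO. The groups overlapped and the log2 fold change was 0.08 (interval -0.39 to 0.55, edgeR adjusted p = 0.976). It was -0.04 without WT replicate 3 and -0.09 without replicate 3 labelled eIF5A-KO. The gene whose pattern was most like that of Ccnd2 was Eif2s3y, a gene of the Y chromosome, with Pearson's r = 0.978 over the 6 libraries. It was the highest of 11038 genes searched, followed by Cped1 (0.965) and Tgoln1 (0.963). A search of this size over 6 libraries yields high values, and the highest for Cdkn1a was 0.997. Eif2s3y stood at 14.9, 19.1 and 7.09 CPM in WT and at 5.08, 12.0 and 32.8 CPM in the libraries labelled eIF5A-KO. Xist, which is expressed from the inactive X chromosome of females, was also present in every library, at 256 to 326 CPM in WT and 118 to 192 CPM in the other group. The part of the mix of sexes in the Ccnd2 values was not tested.

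Ccnd3, the D-type cyclin known to accumulate when myoblasts differentiate, was at 138, 166 and 150.3 CPM in WT and at 132, 142 and 90.2 CPM in the libraries labelled eIF5A-KO. Replicate 3 labelled eIF5A-KO stood apart at the low end, replicate 1 lay just below the WT libraries, and only replicate 2 lay within their range. The log2 fold change was -0.32 (interval -0.77 to 0.14, edgeR adjusted p = 0.863), and -0.14 without replicate 3 labelled eIF5A-KO.

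Levels between genes were compared in FPKM, which is per length. In WT the order ran from Cdkn1a at 246 ± 48.5 FPKM and Ccnd1 at 82.1 ± 11.7 FPKM (SD, n = 3 each), neither of which overlapped with the next gene, down to Cdkn2a at 3.30 ± 0.448 FPKM. Ccnd3 at 17.1, Cdkn2d at 13.8 and Cdkn2c at 12.7 FPKM formed a run in which neighbours overlapped, followed by an overlapping run of Cdkn1b at 9.03, Ccnd2 at 8.25 and Cdkn1c at 6.83 FPKM. Cdkn2b, at 5.23 ± 0.191 FPKM, overlapped with neither neighbour. In the libraries labelled eIF5A-KO the top 4 and the lowest 2 kept their ranks, with Cdkn1a at 310 ± 38.2, Ccnd1 at 63.2 ± 9.95 and Cdkn2a at 0.908 ± 0.361 FPKM. Cdkn2c stood at rank 5 in WT and at rank 7 in the other group, at 8.65 FPKM. There every neighbour from Ccnd3, at 13.8 FPKM, down to Cdkn2b, at 6.80 FPKM, overlapped with the next.

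**Figure D4:**
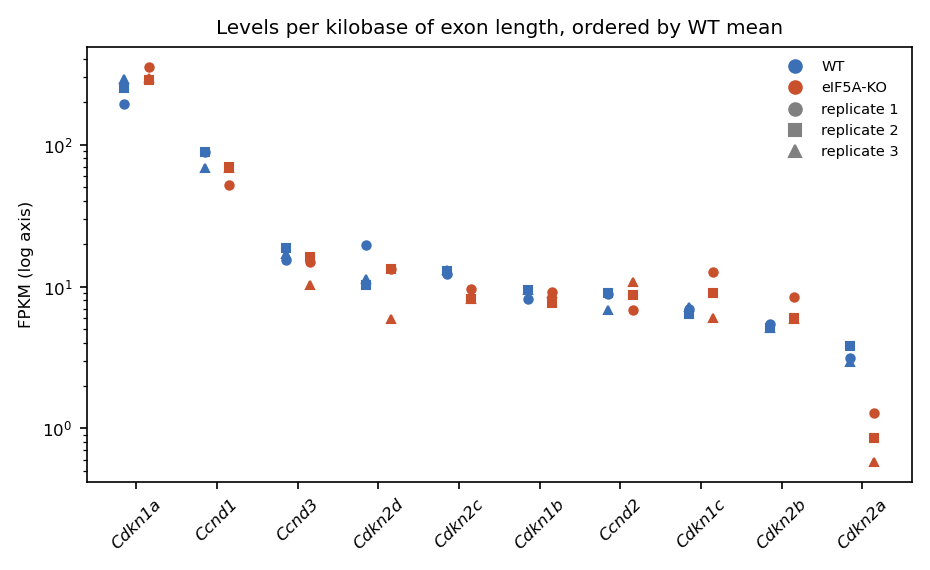
FPKM of the members in each library on a log axis, ordered by the WT mean, with WT in blue, libraries labelled eIF5A-KO in red and symbols for the replicate number. Cdkn1a (WT mean 246 FPKM) and Ccnd1 (82.1 FPKM) stand above the rest and Cdkn2a is lowest in both groups, at 3.30 and 0.908 FPKM.

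Cdkn1a took most of the summed inhibitor FPKM in every library, 77.8% to 85.5% in WT and 86.3% to 89.2% in the libraries labelled eIF5A-KO. The share of Cdkn2c was 4.88%, 4.27% and 3.88% in WT and 2.34%, 2.50% and 2.49% in the other group. Cdkn2a took 0.867% to 1.27% in WT and 0.176% to 0.317% in the libraries labelled eIF5A-KO. The share of Cdkn1b was 2.77% to 3.26% in WT and 2.26% to 2.74% in the other group. The shares of Cdkn1a, Cdkn1b, Cdkn2a and Cdkn2c did not overlap between the groups, although the levels of Cdkn1a and Cdkn1b did. Among the D-type cyclins, Ccnd1 held 74.2% to 78.6% in WT and 70.4% to 76.4% in the libraries labelled eIF5A-KO. The share of Ccnd2 was 7.79%, 7.77% and 7.42% in WT and 9.26%, 9.22% and 12.1% in the other group, with no overlap although its own level overlapped. These shares move with every gene in the sum and were not tested. The 7 inhibitors together came to 250, 299 and 340 FPKM in WT and 409, 329 and 329 FPKM in the libraries labelled eIF5A-KO. The 3 cyclins came to 113, 117 and 92.4 FPKM in WT and 73.4, 94.5 and 89.2 FPKM in the other group, and both sums overlapped.

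By Pearson's r of log2 CPM over the 6 libraries, the genes most like Cdkn2c were Stard7 (r = 0.993), Kcnf1 (0.990) and Tia1 (0.990), and those most like Cdkn2b were Tcim (0.996), Hoxc10 (0.991) and Itgbl1 (0.984). For Cdkn1a they were Babam2 (0.997), Tnfrsf23 (0.992) and Bud13 (0.990), and for Ccnd1 Zfp715 (0.994), Ubxn2b (0.992) and Pkia (0.989). Each was the highest of 11038 genes with a mean of at least 5 CPM, and the values share their libraries and any difference between the groups. Cdkn2a was under that level and was not searched.

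The partners and targets of the members were read as lists from the same fit. In it 7582 of 14679 tested genes were lower, and 4.02% of all were lower at an unadjusted p under 0.05. With the main settings none of these lists had a gene with an adjusted p under 0.05, and 0 genes in them were higher at an unadjusted p under 0.05. Some passed in other fits, all of them lower: E2f2 and Top2a without the expression filter and with DESeq2, Cdk1, Ccna2 and Myog without the filter, E2f2 and Myog with a replicate block, and E2f2, Myog and Mki67 without WT replicate 1. Of the CDKs and later cyclins, 11 of 12 were tested and all 11 were lower in the libraries labelled eIF5A-KO, 7 of them at an unadjusted p under 0.05, with a median log2 fold change of -0.70. Ccna2, the S phase cyclin, was at 75.9 ± 17.9 CPM in WT and 41.8 ± 7.28 CPM in the libraries labelled eIF5A-KO (SD, n = 3 each), with a log2 fold change of -0.86 (edgeR adjusted p = 0.398). The mitotic cyclins Ccnb1 and Ccnb2 had log2 fold changes of -0.78 and -0.73 (edgeR adjusted p = 0.495 for both), and Cdk1, their kinase, -0.87 (adjusted p = 0.549). Cdk1 was at -0.47 without WT replicate 1. Cdk4, the main partner of the D-type cyclins, was level at 434 and 432 CPM. Cdk6, their other partner, had -0.70 (30.4 CPM in WT and 18.7 CPM in the other group, edgeR adjusted p = 0.639), and its groups overlapped. Without WT replicate 1 the list had 10 genes lower and 1 higher, 6 at an unadjusted p under 0.05, and a median of -0.47.

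Of the pocket proteins and E2F factors, 10 of 13 were lower, 4 at an unadjusted p under 0.05 (4.02% over all tested genes). The median was -0.30. The 4 became 2 without WT replicate 2, where the median was -0.16, and 2 without replicate 1 labelled eIF5A-KO. E2f2, an activator of S phase genes, was at 16.5, 43.8 and 27.4 CPM in WT and at 6.18, 5.33 and 3.91 CPM in the libraries labelled eIF5A-KO. Every WT library lay above the other group by a wide margin, with a log2 fold change of -2.48 (edgeR adjusted p = 0.0879). Tfdp2, a dimerization partner of E2F proteins, had -0.85 (adjusted p = 0.389) and Rbl1, the pocket protein p107, -0.62 (adjusted p = 0.611). The abundant members of the list, Tfdp1 and E2f4, a repressor E2F, had log2 fold changes of -0.42 (edgeR adjusted p = 0.740) and 0.07.

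Of the genes for turnover of the inhibitors and cyclins, 6 of 11 were lower and the median was -0.05, which turned to 0.01 when WT replicate 3 was left out and to 0.03 when replicate 1 labelled eIF5A-KO was. Skp2, the F-box protein that marks p27 for degradation, was the 1 gene of that list with an unadjusted p under 0.05, at 17.5 and 11.5 CPM (log2 fold change -0.60, edgeR adjusted p = 0.500). Its cofactor Cks1b had -0.37 and Fbxo31, an F-box protein for cyclin D1, 0.26, while the abundant ligase subunits Ddb1 and Skp1a had 0.04 and -0.13. Of 14 transcriptional regulators, 5 were lower and 9 higher, with a median of 0.08. Without WT replicate 1 this reversed to 9 lower and 5 higher, with a median of -0.07. Myog, the differentiation factor myogenin, was at 41.0 ± 31.9 CPM in WT and 5.37 ± 3.43 CPM in the libraries labelled eIF5A-KO (SD, n = 3 each), with a log2 fold change of -2.91 (edgeR adjusted p = 0.362). The WT libraries were far apart, and without WT replicate 2, the highest, the log2 fold change was -2.10. Ezh2, the histone methyltransferase that is known to silence the Cdkn2a locus, had -0.55 (adjusted p = 0.495). Trp53, the gene of p53, had 0.23 (edgeR adjusted p = 0.910), with 195 CPM in WT and 229 CPM in the libraries labelled eIF5A-KO. Myod1 and Jun, the other named regulators, had -0.61 and 0.13 (edgeR adjusted p = 0.794 for Myod1). Myod1 was at -0.36 without WT replicate 2 and at -0.85 without WT replicate 1.

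Of 18 S phase and mitosis markers, 17 were lower, 10 at an unadjusted p under 0.05 (4.02% over all tested genes). The median was -0.46. Top2a, the topoisomerase of dividing cells, was at 235 ± 15.7 and 125 ± 14.0 CPM (SD, n = 3 each; log2 fold change -0.91, edgeR adjusted p = 0.242). Mcm6, part of the replicative helicase, had -0.65 (adjusted p = 0.398) and the proliferation marker Mki67 -0.75 (adjusted p = 0.549). The abundant Pcna, the sliding clamp of replication, and Rrm2, a ribonucleotide reductase subunit, had -0.50 and -0.37 (edgeR adjusted p = 0.793 and 0.805). The summed level of the list was 586 to 722 FPKM in WT and 409 to 523 FPKM in the libraries labelled eIF5A-KO, with no overlap. Its count at an unadjusted p under 0.05 was 10 without WT replicate 1 and 3 without replicate 1 or without replicate 3 labelled eIF5A-KO. Cdkn2c and Cdkn2a shared the direction of this list between the groups. Within WT, replicate 1 had the highest sum of the list, 722 FPKM, and the lowest Cdkn2c, 33.3 CPM. The part of the list in the values of both genes was not tested.

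**Figure D5:**
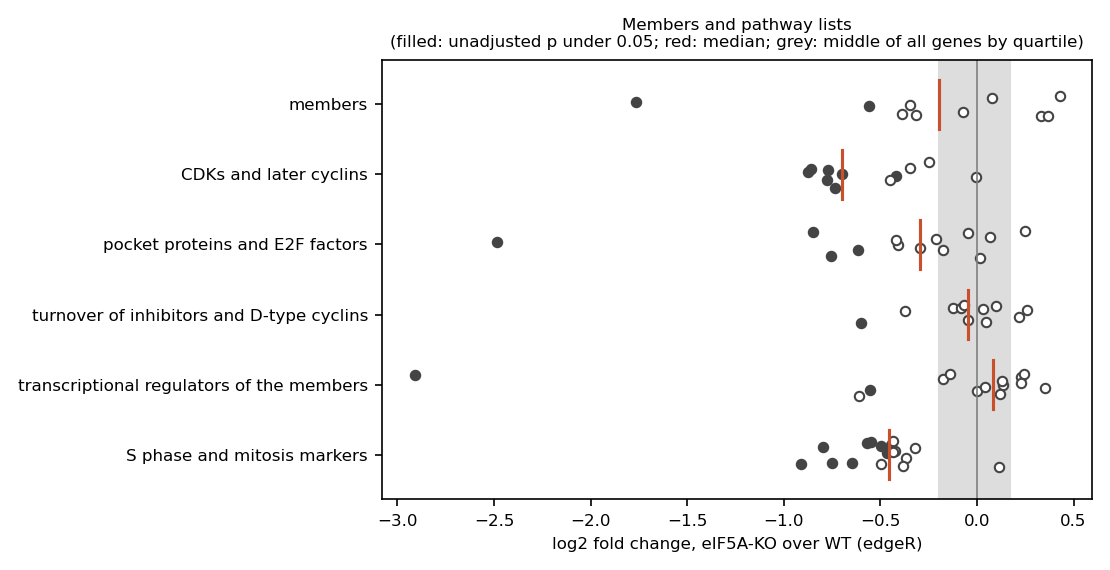
Log2 fold changes (libraries labelled eIF5A-KO over WT, edgeR) of the members and of 5 lists of related genes; each point is a gene, filled at an unadjusted p under 0.05, with the list's median in red and the middle quartiles of all tested genes (-0.20 to 0.17) in grey. The CDKs and later cyclins (median -0.70) and the S phase and mitosis markers (median -0.46) lie mostly left of the grey band, while the members straddle it.

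The cultures held transcripts of several cell types, and in bulk RNA fewer cells of a type and less RNA per cell cannot be told apart. All 8 markers in each of 5 lists were detected, and 0 were at 0 in every library. Of 8 myogenic markers, 7 were lower in the libraries labelled eIF5A-KO, and their sum was 238 to 550 FPKM in WT and 182 to 354 FPKM in the other group. Their median log2 fold change was -0.57. Without WT replicate 2 it was -0.33 with 5 lower and 3 higher, and without WT replicate 1 it was -0.79 with 3 genes at an edgeR adjusted p under 0.05. All 8 endothelial markers (300 to 625 and 547 to 757 FPKM) and all 8 mural markers (106 to 185 and 181 to 218 FPKM) were higher. Of the mural markers, 4 were higher at an unadjusted p under 0.05, against 2.74% of all tested genes. Myh11, a smooth muscle myosin, was 1 of the 3 genes in the whole table that passed the threshold (log2 fold change 1.51, edgeR adjusted p = 0.0486). With 1 library left out its edgeR adjusted p was 0.0108 without WT replicate 1 and 0.0792 to 0.315 in the other 5 fits. WT replicate 1 had the lowest endothelial and mural sums of all libraries, and without it 7 endothelial and 6 mural markers were higher, as they were without replicate 3 labelled eIF5A-KO. The fibroblast list was at 814 to 1111 and 862 to 1016 FPKM, with 5 of 8 markers lower, though the 2 at an unadjusted p under 0.05, Col1a1 and Col1a2, were higher (log2 fold changes 0.72 and 0.71, edgeR adjusted p = 0.504 and 0.495). Without WT replicate 1, 3 fibroblast markers were lower and 5 higher. The macrophage list was at 45.1 to 96.1 and 47.2 to 122 FPKM, with 2 of 8 lower and a median log2 fold change of 0.31. The median was 0.77 with 0 lower without WT replicate 2, and 0.06 with 3 lower without replicate 1 labelled eIF5A-KO. The part of this mix in the values of the members was not tested.

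The library kit did not mark the strand, so reads from a member and from a gene on the opposite strand could be mixed where exons overlap. This touched Ccnd1, which shares 1100 bases of its 4709 exon bases with LTO1 (265 to 329 reads per library), and Ccnd3, which shares 361 of 8775 with Bysl (1163 to 1417 reads). Cdkn1a, Cdkn1c and Ccnd2 overlapped only with genes of at most 32 reads per library. A pseudogene, Ccnd3-ps, aligned to Ccnd3 over 881 bases at 96.3% identity and had at most 3 reads in any library. No such copy was found for the INK4 members or Cdkn1b.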

How the data were processed

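Bulk RNA-seq of 3 WT libraries and 3 libraries labelled eIF5A-KO was used. Per the methods, TRIzol served for total RNA and a NEBNext Ultra kit for the libraries, and the authors mapped reads to mm10 with HISAT. The HISAT version, the annotation and the treatment of reads that map to several places are not given in the sources used here. The authors deposited counts of reads per gene without normalization. They also deposited FPKM, whose denominators were checked to be size factors multiplied by 1 constant, so libraries were already scaled.

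Counts were tested over the whole table with edgeR 4.0.16 in R 4.3.3 (filterByExpr, TMM, quasi-likelihood F test, prior count 2, Benjamini-Hochberg over 14679 genes, threshold adjusted p under 0.05). CPM values use TMM factors. Members were also compared by an exact two-sided permutation test on log2(FPKM + 1), where 0.1 is the smallest p. The tests were run on simulated data first. Members and lists were chosen with earlier results of these data known. Named genes were all members and, per pathway list, the 3 genes of smallest p and the 2 of highest mean CPM. The 3 genes most like a member by Pearson's r were listed for members at a mean of at least 5 CPM. Trp53, Cdk6, Xist and the neighbouring genes Kcnq1ot1, Kcnq1 and Mtap were added after their values were seen.

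Alternatives were other scaling factors, a filter dropped or raised to 10 counts per library, DESeq2 1.42.0, limma 3.58.1 (voom, or log2(FPKM + 1) and log2(FPKM + 0.1)), a replicate block, and each library left out. Coordinates come with the counts, and all 10 members matched GENCODE annotation of GRCm38. Copies were searched with blastn 2.17.0. Depth was even between libraries. Among the members the SE of the log2 fold change was largest for Cdkn2d (0.350) and Cdkn2a (0.341).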

Additional observations from a re-analysis of the deposited data

How the results depend on the processing

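At an adjusted p under 0.05, edgeR called 1 gene higher and 2 lower of all tested, and 992 at an unadjusted p under 0.05. No gene (0 higher, 0 lower) was called with DESeq2's size factors, library size alone, a minimum of 10 counts per library, limma-voom, or limma with FPKM logged after adding 1 or 0.1, with 907 to 992 genes at an unadjusted p under 0.05. Without a filter 65 were higher and 184 lower, and with DESeq2 19 and 69. With single libraries left out the counts ran from 0 to 8 higher and 0 to 48 lower, the upper ends without WT replicate 1, and in the other 5 fits 585 to 1318 genes had an unadjusted p under 0.05. The replicate numbers did not pair the libraries (correlations of same-numbered deviations 0.103, -0.221 and 0.113). A replicate block called 7 higher and 17 lower and changed no member's call or direction (among other genes named, E2f2 and Myog passed), with Cdkn2a at -1.80 (edgeR adjusted p = 0.101). Cdkn2a passed without a filter (-1.75, edgeR adjusted p = 0.000988) and with DESeq2 (-1.87, adjusted p = 0.00224), and over all 10 other settings its adjusted p ran from 0.000988 to 0.301. With 1 library left out Cdkn2a ran from -2.06 to -1.54. The direction of 3 members turned when a library was left out: Cdkn1b was at 0.017 without replicate 2 labelled eIF5A-KO (range -0.13 to 0.017), Cdkn2d at 0.0145 without WT replicate 1 (range -0.52 to 0.0145), and Ccnd2 at -0.037 without WT replicate 3 and -0.0931 without replicate 3 labelled eIF5A-KO (range -0.0931 to 0.24). On log2(FPKM + 1) the same 3 turned: Cdkn1b to 0.0163 without replicate 2 labelled eIF5A-KO, Cdkn2d to 0.0111 without replicate 3 labelled eIF5A-KO, and Ccnd2 to -0.0463 without WT replicate 3 and -0.0790 without replicate 3 labelled eIF5A-KO (lowest and highest -0.12 and 0.0163, -0.51 and 0.0111, -0.0790 and 0.22). The cause was not tested. Few reads on Cdkn2a limit its precision.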
